A study of Mus musculus with 8 samples.

Results

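The 4 GFP control arrays of a series of 8 are described here as a portrait of the culture itself. On each array the RNA of cultured mouse hippocampal neurons, labelled with Cy5, was set against Universal Mouse Reference RNA (Stratagene), labelled with Cy3, and the members were the arrays titled as controls, 4 of the 8 samples. The neurons had been dissociated, kept 10 days in culture, given a lentivirus that carries GFP, and kept for 6 days more. The series was made to study overexpression of Flag-Nr4a1 in the same cultures, and those 4 arrays were not used. Mouse strain, age and sex are not given in the sources used here, and neither is whether the 4 arrays came from separate cultures, so the p-values reflect the spread among these 4 arrays alone, part or all of which could be technical. The labels put replicates 1 to 3 in batch 1 and replicate 4 alone in batch 2.

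A hippocampal culture holds glutamatergic pyramidal and granule neurons, a minority of GABAergic interneurons and, unless cell division is blocked, glia that keep growing beneath them. Neurons have left the cell cycle. They carry vesicle release machinery in their axons, receptor scaffolds in their dendritic spines, and a set of ion channels that makes them excitable. The reference is a commercial pool of RNA from mouse cell lines of different tissues, which gives the same comparator on every array. A high ratio therefore says that a transcript took a larger share of the culture's RNA than of that pool, not that it was abundant in absolute terms. Fewer cells of a type and less RNA per cell cannot be told apart in such bulk RNA. The culture was always in Cy5 and the pool always in Cy3, so dye and sample cannot be told apart either.

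Each array gave 43020 spots that were not controls, with a median signal of 138 to 175.5 in Cy5 and 142.5 to 147 in Cy3 over a local background of 29 to 32. Of these spots, 62.4% to 69.2% stood well above background in Cy5 and 62.5% to 67.6% in Cy3, and none was saturated. The log2 ratios of any 2 arrays correlated at 0.9900 to 0.9952 across features, which are not independent replicates. Replicate 4 stood slightly apart, with a highest correlation of 0.9911 and an SD of its deviations from the mean of 0.128, against 0.0891 to 0.0936 for the others. Some of the results that it moved are also given without it.

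Ratios were background-corrected and normalised within each array, and a feature was called higher or lower in the culture when limma placed its ratio beyond 2-fold of 1 at a Benjamini-Hochberg adjusted p under 0.05 over all 32585 features (genes, or probes without a gene name). By this rule 4165 features were higher (12.8% of those tested) and 3914 were lower (12%). The median log2 ratio over all features was 0.01. No filter on dim signal was used, so every list member on the array was tested. The lists were chosen with earlier results of these data known, so the counts of their members are a description and not independent support. Both channels stood well above background on all 4 arrays for 17684 features. Cy5 reached that margin on 1 or more arrays and Cy3 on none for 1901, Cy3 and never Cy5 for 1421, and neither channel on any array for 8008. All of these enter the shares of 12.8% and 12%, which are the background for every list below. With only probes above background in both channels on all 4 arrays, 3360 of 17728 features were higher and 3346 lower, so that background is larger among well-detected genes. Where a channel did not reach the scanner's margin above background on even 1 array, the fold is given as a lower bound, taken from the bright channel's mean against the array's floor of detectable signal or, where that was higher, the dim channel's own signal. Such a bound then equals the measured ratio. Values for single genes are log2(Cy5/Cy3) on replicates 1, 2, 3 and 4 in that order.

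The highest ratio of all named genes was that of Plppr4. Plppr4, a brain-enriched phospholipid phosphatase-related protein of excitatory synapses, read 9.25, 9.18, 9.62 and 9.54, a mean of 9.40 ± 0.21 (SD, n = 4), with Cy3 well above background on 2 of the 4 arrays. Means below are likewise given ± SD over 4 arrays. Its second probe gave 2.73, also called higher. Clstn2, a postsynaptic calsyntenin, averaged 8.65 ± 0.14 with Cy3 above background on 3 arrays, and the proteolipid-family membrane proteins Gpm6a and Gpm6b averaged 8.53 ± 0.13 and 8.15 ± 0.062. Scg2, a granin of dense-core vesicles, read 8.06, 8.03, 8.35 and 8.36, and since the reference stood above background on no array it was at least 294-fold higher (limma adjusted p = 2.08e-14). Cnr1, the CB1 cannabinoid receptor, was likewise at least 237-fold higher. The adhesion molecules Chl1 and Cntn1 averaged 7.65 ± 0.050 and 7.58 ± 0.16, and Grm5, a metabotropic glutamate receptor, 7.58 ± 0.085. Also among the 15 highest were the secreted Sparcl1 (7.61), Gprasp2 (7.45), which sorts receptors after uptake, the active zone protein Erc2 (7.44), the sodium channel Scn2a (7.35) and the zinc finger gene Zcchc12 (7.26). Probes of 3 of these disagreed: a second probe of Erc2 read 0.08, the other probes of Grm5 read 1.95 and 0.81, and those of Scn2a read 4.98 and 1.1001.

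The lowest ratio was that of Anxa1. Anxa1, the phospholipid-binding annexin A1, read -8.16, -8.39, -8.19 and -8.05, which is 293-fold more in the reference (adjusted p = 1.73e-14). A second probe of Anxa1 read -4.87, also called lower. Fn1, fibronectin of the extracellular matrix, read -7.36, -7.39, -7.16 and -7.81, and Col1a1, the main chain of type I collagen, read -6.48, -6.67, -6.51 and -6.35. Emp1, an epithelial membrane protein, averaged -6.87 ± 0.13, the interferon-inducible Ifi202b -6.69 ± 0.16 and the lysosomal protease Ctss -6.38 ± 0.19. Casp4, an inflammatory caspase, averaged -6.02 ± 0.21 with Cy5 well above background on 3 arrays. Also among the 15 lowest were the ribosomal protein relative Rpl39l (-5.88), the homeobox gene Hoxc6 (-5.70), the basement membrane gene Nid1 (-5.58), the calcium-binding S100a6 (-5.58), the cyclooxygenase Ptgs1 (-5.57), the proliferation antigen Mki67 (-5.55) and the thrombospondin Thbs1 (-5.50). For Nid1 the other probes read -0.91 and -0.31, with Cy5 above background on no array. In all 28 of these genes each of the 4 arrays gave the same sign.

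**Figure D1:**
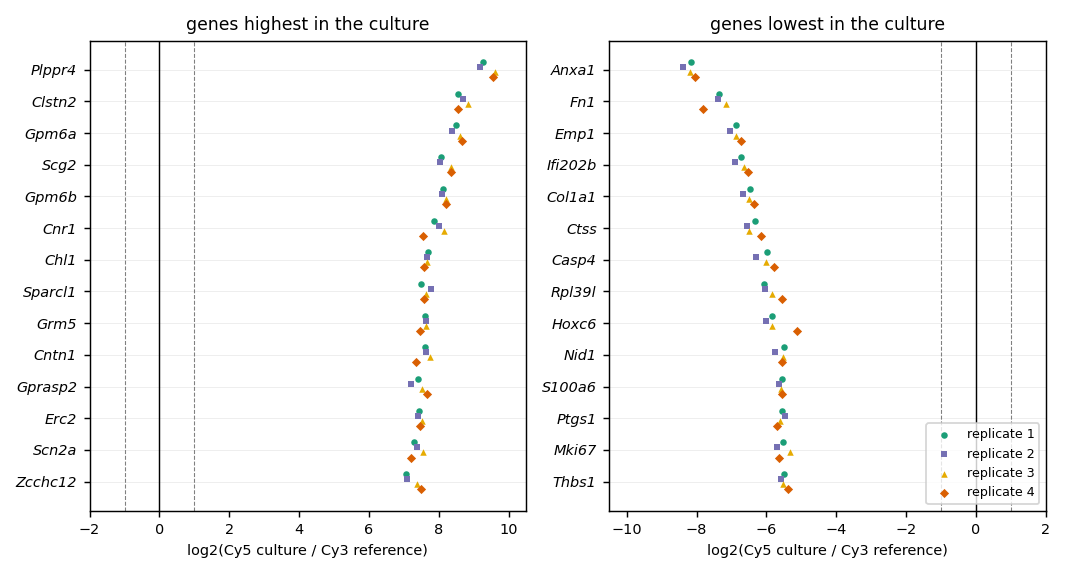
Log2(Cy5 culture / Cy3 reference) of 14 of the 15 highest and 14 of the 15 lowest genes with a name, with 1 point per array and dashed lines at a 2-fold difference. The points of a gene lie close together against their distance from 0. The widest spread among these genes is that of Hoxc6, whose replicate 4 reads -5.11 against -6.00 to -5.84 on the others.

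Every general neuron marker was higher in the culture. Of the 22 pan-neuronal markers on the array, 22 were called higher and none lower, against 12.8% and 12% of all features, with a median log2 ratio of 4.41. Nefl, the light neurofilament chain, read 7.00, 6.93, 6.96 and 6.91, which is 124-fold (adjusted p = 1.69e-14). Map2, the dendritic microtubule-associated protein, read 6.80, 6.67, 6.95 and 6.86, Syt1, the calcium sensor of vesicle release, read 6.43, 6.27, 6.43 and 6.35, and Tubb3, neuronal beta-tubulin, read 6.08, 6.03, 6.15 and 6.30. All 4 arrays lay above a log2 ratio of 6 for these genes. Rbfox3, whose product is the nuclear antigen NeuN, averaged 3.43 ± 0.13. The smallest value on the list was that of Snap25, the plasma membrane SNARE of synaptic release, at 1.35, 1.47, 1.49 and 1.41, or 2.69-fold (adjusted p = 6.73e-06).

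Most excitatory neuron markers were higher too. Of 18 glutamatergic and pyramidal neuron markers, 15 were higher and none lower (median 3.38). Neurod6, a transcription factor of pyramidal neurons, read 6.79, 6.80, 6.92 and 6.81, and Tbr1, a T-box factor of excitatory neurons, read 6.92, 6.65, 7.11 and 6.67 with the reference well above background on 1 array. A second probe of Tbr1 read 0.42. Crym, a thyroid hormone-binding protein of pyramidal cells, averaged 6.28 ± 0.061. Of the vesicular glutamate transporters, Slc17a7 (VGLUT1) read 3.50, 3.47, 3.58 and 3.55, or 11.5-fold. Slc17a6 (VGLUT2) read 2.81, 2.72, 2.83 and 2.74 against a reference not well above background, at least 6.77-fold. Camk2a, the kinase of excitatory postsynapses, averaged 4.21 ± 0.13, with a second probe at 1.24 that was also called higher. The 3 members not called lay between -0.87 and 1.03, and the lowest of them was called lower with the scanner's ratio, with normexp offset 0 and against a 1.5-fold null.

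Hippocampal subfield markers were mixed, 13 of 21 higher and 1 lower with a median of 1.44, which was 3.06 with the scanner's ratio and 2.54 with normexp offset 0. The 3 highest were Grik4, a kainate receptor subunit rich in CA3, with 6.30, 6.06, 6.23 and 6.17, Spink8, a protease inhibitor gene, with a mean of 5.48 ± 0.12, and Pcp4, a calmodulin-binding peptide gene of CA2 and dentate gyrus, with 4.90 ± 0.056. Nectin3, a CA3-rich adhesion molecule, averaged 2.93 ± 0.089. Prox1, the transcription factor of dentate granule cells, read 0.75, 1.00, 0.76 and 0.40 and was not called (adjusted p = 1), with Cy5 well above background on 3 arrays and Cy3 on none. Wfs1, a CA1 marker, read 1.12, 1.00, 1.13 and 0.72 and was not called either. Bok, a BCL2-family gene, was the 1 lower member at -2.04 ± 0.091. A subfield is named here for only some of these markers, Spink8 and Bok not among them, and subfields were not compared.

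GABAergic markers did not all move one way. Among 25 markers, 13 were higher and 1 was lower (median 1.41, or 3.75 with the scanner's ratio and 2.44 with normexp offset 0). Gad1, which makes GABA, read 5.79, 6.04, 5.97 and 5.77 with Cy3 above background on 3 arrays, Gad2, the second GABA-synthesising enzyme, read 4.84, 4.91, 5.05 and 4.64, and Slc32a1, which loads GABA into vesicles, read 6.12, 5.94, 6.06 and 6.07. A second probe of Slc32a1 read 1.51, also called higher. Of the peptides and calcium-binding proteins that divide interneurons into classes, Cck (5.38), Tac1 (5.37, Cy3 on 2 arrays), Calb2 (4.74), Sst (3.67) and Npy (1.67, Cy3 on 3 arrays) were higher, and Vip was at least 2.54-fold higher. Pvalb, parvalbumin of fast-spiking interneurons, read 1.00, 0.97, 1.04 and 0.97 and was not called. The Dlx genes, which specify interneuron precursors, were not called: Dlx1 read 0.21, 0.45, 0.57 and 0.41, and Dlx2, Dlx5 and Dlx6 averaged -0.62, 0.92 and 0.26. Maf, a transcription factor of interneurons from the medial ganglionic eminence, was lower at -1.35 ± 0.12 (adjusted p = 0.000118). Its call was lost with median centring and with no normalisation, where it read -1.18 in both.

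Markers of neurons that use other transmitters were mostly not called. Of 23 such markers, 20 were not called, 1 was higher (4.35%) and 2 were lower (8.70%), against 12.8% and 12% of all features. Chat, which makes acetylcholine, read 0.24, -0.061, 0.061 and -0.24, with Cy5 well above background on no array, and Tph2, which makes serotonin, was above background in neither channel on any array. Th, the first enzyme of dopamine synthesis, read 0.41, 0.49, 0.46 and 0.37. The 1 higher member was Slc6a3, the dopamine transporter, at 1.74, 1.88, 2.01 and 1.81 against a reference not well above background, at least 3.54-fold. Without replicate 4 the number of higher members was 2. The lower members were Ddc, which makes dopamine and serotonin from their precursors, at -1.78 ± 0.13 (a second probe at -0.34 was not called), and Slc6a2, the noradrenaline transporter, at least 2.46-fold more in the reference.

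**Figure D2:**
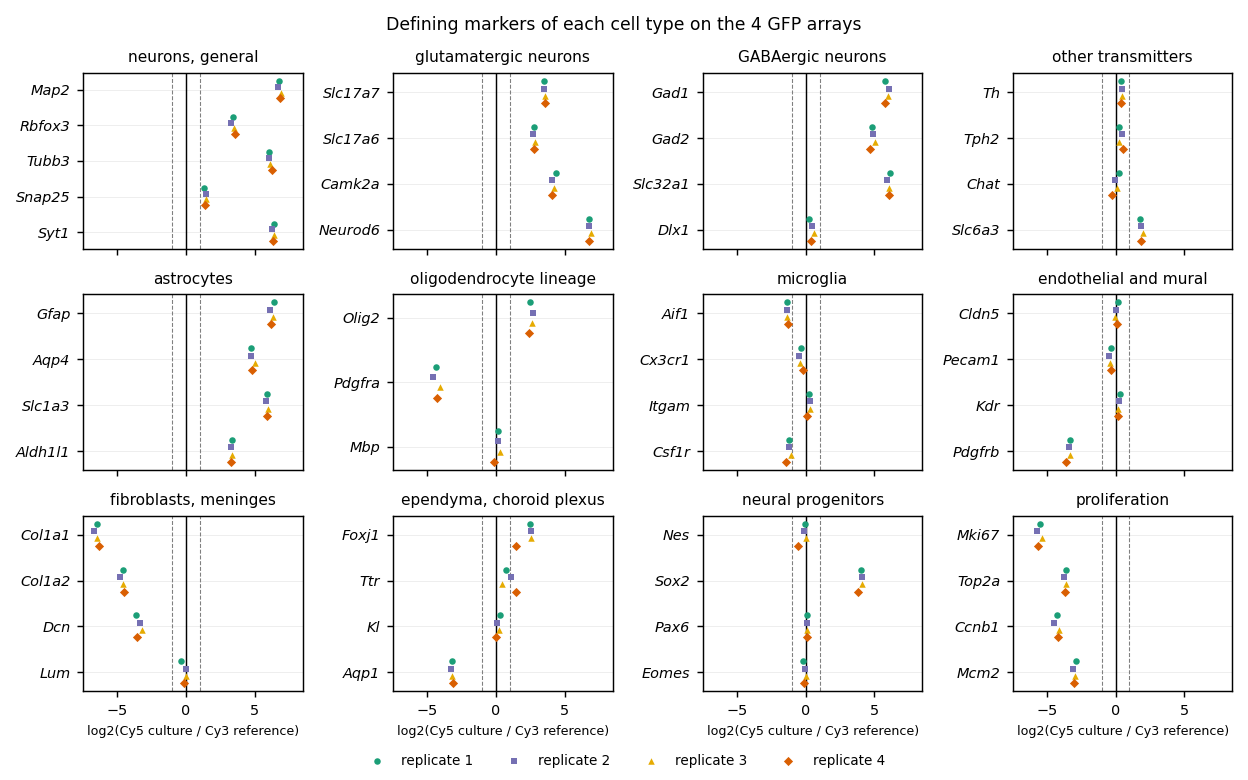
Log2(Cy5 culture / Cy3 reference) of the defining markers of 12 cell types or states, with 1 point per array and dashed lines at a 2-fold difference. Markers of general, glutamatergic and GABAergic neurons and of astrocytes lie to the right of the 2-fold line, except Dlx1, which lies between 0 and that line. Fibroblast and proliferation markers lie to the left, except Lum.

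Most transcription factors of the forebrain were higher in the culture. Of 36 forebrain and neuronal transcription factors, 22 were higher and 2 lower (median 1.64). Lhx2, a selector gene of hippocampus and cortex, read 5.03, 5.02, 5.08 and 4.82, or 31.7-fold. Myt1l, a zinc finger factor that maintains neuronal identity, averaged 4.60 ± 0.050, and Lmo3, a LIM-only cofactor, 4.26 ± 0.022. Other probes of Myt1l read 3.21 and 1.85, both called higher. Emx2, a dorsal telencephalic homeobox gene, read 1.11, 1.06, 1.196 and 1.11 and was barely past the threshold (adjusted p = 0.048). Its call was lost when any 1 of the 4 arrays was left out, with adjusted p of 0.0558 (without replicate 4) to 0.23 (without replicate 3). Mef2c, an activity-dependent factor, read 0.49, 0.55, 0.47 and 0.24 and was not called. The 2 lower members were Ebf1, a factor of B cells and some neurons, at least 4.07-fold more in the reference, and Hes1, an effector of Notch, at -1.35 ± 0.14.

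Hox genes, which pattern hindbrain, spinal cord and trunk, were lower or not called. Of 33 Hox genes on the array 20 were lower and none higher, and of the 3 further posterior genes listed with them (En1, En2 and Gbx2) none was called. The lower genes came from each of the 4 clusters, with 5 of 9 in Hoxa, 7 of 9 in Hoxb, 5 of 8 in Hoxc and 3 of 7 in Hoxd. Hoxc6 read -5.84, -6.00, -5.85 and -5.11, or 52.0-fold more in the reference, Hoxc9 averaged -4.82 ± 0.16 and Hoxc4 -3.56 ± 0.11, with Cy5 above background on 3 arrays for Hoxc4. In 17 of the 33 genes Cy5 stood above background on no array, and in 14 of these the reference was above it on all 4. For such genes the difference is a bound: Hoxb5 was at least 3.19-fold and Hoxa5 at least 2.18-fold more in the reference. Hoxd10 was above background in neither channel. In 11 genes, Hoxc6 and Hoxc9 among them, Cy5 was well above background on all 4 arrays. The median over the 36 genes of this list moved from -1.26 to -3.58 with the scanner software's own ratio, which subtracts background without an offset, and to -2.47 with normexp offset 0.

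Rest and Ptbp1, which keep neuronal genes and exons off in other tissues, were lower in the culture, and several neuronal splicing factors were higher. REST is a repressor that binds RE1 elements and silences neuronal genes outside the nervous system, and PTBP1 holds neuronal exons out of messages. Rest read -2.75, -2.55, -2.62 and -2.74, or 6.34-fold more in the reference (adjusted p = 8.36e-11), with a second probe at -0.70 that was not called. Ptbp1 read -2.74, -2.74, -2.71 and -2.78, or 6.70-fold. Srrm4, a splicing factor of neuronal microexons, read 3.06, 3.15, 3.21 and 2.78, and the splicing regulators Rbfox1 and Celf3 read 5.77, 5.61, 5.76 and 5.74 and 6.60, 6.44, 6.70 and 6.67. Khdrbs3, an RNA-binding protein, averaged 4.82 ± 0.12. Nova2, at 1.13, 1.01, 1.04 and 0.85, was not called. Igf2bp2, an mRNA-binding protein of fetal and tumour tissue, read -4.30, -4.33 and -4.32 on replicates 2 to 4 and gave no value on replicate 1. Mbnl3, a muscleblind-family splicing factor, averaged -4.14 ± 0.21 with Cy5 well above background on 1 array, and its second probe was above background in neither channel. Over the list of 37 RNA-binding and REST-system genes, 13 were higher and 10 lower, and the median of 0.068 changed sign with the scanner's ratio (-0.037) and with the deposited value table (-0.057).

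RefSeq promoter windows of 300 bases around the gene start (GRCm38.p6, 32851 windows of 27025 genes) were searched on both strands for the RE1 left half-site TTCAGCACC and for the core of the right half-site GGACAGCGC. The left half-site stood in the windows of 1.07% of 2699 higher genes, 0.233% of 2144 lower genes, 0.413% of 11141 genes not called and 0.433% of all genes. The right core stood in 1.07%, 0.606%, 0.557% and 0.477% of the same groups. Neither motif contains the other, no test was made, and a match is only a match of letters. The following stretches upstream of higher genes are shown because they hold a half-site, in capitals, in a gene of synaptic transmission described here. They are written along the gene's strand, so a motif on the opposite strand appears as its reverse complement (GCGCTGTCC).
Syn1 (chrX:20921112-20921168, minus strand): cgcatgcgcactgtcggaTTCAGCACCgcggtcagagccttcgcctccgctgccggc
Nlgn1 (chr3:26154101-26154169, minus strand): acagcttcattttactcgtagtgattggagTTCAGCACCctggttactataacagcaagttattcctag
Gad2 (chr2:22622142-22622210, plus strand): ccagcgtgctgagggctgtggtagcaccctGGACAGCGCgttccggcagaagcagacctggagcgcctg
Gria2 (chr3:80802970-80803038, minus strand): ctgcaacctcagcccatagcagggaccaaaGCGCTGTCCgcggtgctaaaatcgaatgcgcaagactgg
Syn1, which encodes synapsin 1, had the match at position -232 from the gene start on its own strand. Nlgn1, neuroligin 1, had it at -153 on its own strand, Gad2 at -155 on its own strand and Gria2, an AMPA receptor subunit, at -173 on the opposite strand. The cyclic AMP response element TGACGTCA stood in 3.96% of higher, 2.66% of lower and 2.40% of uncalled genes, and TATAAA in 10.1%, 12.6% and 15.4%. The CCAAT pentamer was nearly even, at 43.5%, 41.6% and 42.1%.

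Most presynaptic genes were higher, with 40 of 46 vesicle and release genes called higher and none lower (median 3.60). Syt11, a synaptotagmin, averaged 7.06 ± 0.089. The vesicle proteins Syp and Syn1 read 3.82, 3.83, 3.92 and 3.70 and 3.29, 3.19, 3.35 and 3.20, and Stx1a, of the fusion machinery, averaged 3.54 ± 0.093. The members not called were Rab3c, Unc13c, Sv2c, Syt2, Rimbp2 and Rims1, at -0.94, -0.48, 0.15, 0.17, 0.42 and 0.96.

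Receptors for glutamate were higher for 24 of 33 genes with none lower (median 3.09, or 2.19 with the mean of all probes of a gene). Among the AMPA receptor subunits Gria1 read 6.81, 6.81, 6.73 and 6.78, or 110-fold. Gria2, which sets calcium permeability, read 3.33, 3.44, 3.62 and 3.59 against a reference not well above background, at least 11.1-fold. Of the NMDA receptor subunits Grin1, which every such receptor needs, read 3.34, 3.22, 3.03 and 3.02, and Grin2b averaged 2.22 ± 0.11. A second probe of Grin1 read 0.87 and was not called. For 9 of the 33 genes the culture stood above background on 1 or more arrays and the reference on none.

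In the excitatory postsynapse, 34 of 40 genes were higher and none lower (median 3.63, or 2.79 with the mean of all probes of a gene). Dlg4, the PSD-95 scaffold, read 3.61, 3.50, 3.52 and 3.51, or 11.6-fold. Nlgn1, a postsynaptic adhesion molecule, read 5.51, 5.75, 6.15 and 6.06, at least 55.1-fold. Dlgap3, a scaffold that binds PSD-95, averaged 5.86 ± 0.043, with a second probe at 1.75 that was also called higher. The adhesion protein Slitrk5 averaged 5.75 ± 0.13. Homer1, a scaffold for metabotropic receptors, averaged 2.20 ± 0.11, with another probe of Homer1 at 0.56. Shank1 read 0.46, 0.78, 0.55 and 0.50 and was not called, and its other probes gave 0.95 and -0.54.

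Most genes of inhibitory synapses were higher, with 18 of 22 genes higher and a median of 4.30, or 3.41 with the mean of all probes of a gene. Gabra5, a GABA-A subunit rich in hippocampus, read 6.13, 5.94, 6.15 and 6.02, or 66.6-fold, and Gabra2 averaged 5.97 ± 0.11 with Cy3 above background on 3 arrays. Gphn, the gephyrin scaffold of inhibitory synapses, averaged 3.16 ± 0.073. Gabbr2, a GABA-B receptor subunit, was at least 8.44-fold higher. Its other probes read 2.28, called higher, and 0.42, not called. The single lower member, Slc12a2, which loads chloride into immature neurons, read -1.23, -1.27, -1.104 and -1.16 (adjusted p = 0.00468). Its call was lost with median centring of the arrays, where it read -0.83. Slc12a5, which extrudes chloride from mature neurons, averaged 5.13 ± 0.20.

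Excitability genes were higher for 17 of 27 sodium, calcium and HCN channel genes and 34 of 48 potassium channel genes, with none lower (medians 2.32 and 2.80). The first median was 1.49 in the deposited value table and the second 4.29 with the scanner's ratio. With the mean of all probes of a gene the medians were 1.65 and 2.30. Scn2a, the main sodium channel of young excitatory neurons, read 7.28, 7.39, 7.54 and 7.19, while its other probes gave 4.98 and 1.1001. The auxiliary subunit Scn2b averaged 5.89 ± 0.043 and Scn1a 3.84 ± 0.16, the latter with Cy3 above background on 2 arrays and a second probe at 0.75. Scn3a, a sodium channel of the immature brain, averaged 4.75 ± 0.091, and another of its probes, which stands for it in the deposited value table, read 0.35. Cacna1b, the N-type calcium channel, read 0.55, 0.44, 0.52 and 0.25 and was not called. Among potassium channels Kcnd2, which carries A-type current, was at least 145-fold higher. Kcnj10, the inward rectifier of astrocytes, read 6.81, 6.78, 6.84 and 6.50 with Cy3 above background on 3 arrays. Kcna1 and Kcnc1, voltage-gated channels of axons and fast-spiking cells, averaged 6.54 ± 0.11 and 4.31 ± 0.17.

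Dense-core vesicle genes were higher for 29 of 39 members and lower for none (median 3.14). Besides Scg2, the granins Chgb and Chga read 6.63, 6.45, 6.59 and 6.49 and 4.78, 4.67, 4.71 and 4.73, and Scg3 averaged 5.77 ± 0.081. Pcsk1, which cleaves prohormones, was at least 13.2-fold higher. Npy, neuropeptide Y, read 1.95, 1.83, 1.81 and 1.07, lower on replicate 4 than on the other arrays, and the reference was above background on 3 arrays.

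Activity-regulated genes divided. Of 37 genes, 10 were higher and 16 lower (median -0.93). Those higher included members known mainly from neurons: Egr4 read 6.61, 6.48, 6.86 and 6.30, with the reference above background on 1 array, Npas4, which is induced by calcium entry, read 1.98, 2.17, 2.23 and 1.72, and Arc, of the dendritic spine, read 1.42, 1.38, 1.48 and 1.14. Nrn1, a secreted neuritin, averaged 2.84 ± 0.030. Those lower included general serum-response genes. Fos read -2.54, -2.64, -1.92 and -2.74, Egr1 -2.01, -2.22, -1.71 and -2.77 and Fosl1 a mean of -2.83 ± 0.086, and Klf4 and Ccn1, which respond to growth factors, averaged -4.22 ± 0.096, with Cy5 above background on 3 arrays, and -4.15 ± 0.046. Nr4a1 itself, the nuclear receptor the series overexpressed in its other group, read -2.06, -2.12, -1.90 and -2.49 in these controls, or 4.42-fold more in the reference (adjusted p = 1.72e-07). Replicate 3 had the least negative and replicate 4 the most negative value for Fos, Egr1 and Nr4a1.

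Most cytoskeletal genes on a list weighted to neurons were higher. Of 49 microtubule, neurofilament and transport genes, 39 were higher and 6 lower (median 3.64, or 2.72 with the mean of all probes of a gene). Dync1i1, a neuronal dynein intermediate chain, read 6.77, 6.74, 6.86 and 7.02, Mapt (tau) averaged 5.72 ± 0.11, the axonal kinesin Kif5c 4.86 ± 0.075 and Map1b 1.98 ± 0.30, with a second probe of Map1b at 1.19 that was not called. The lower members were the epithelial keratins Krt18 (-4.15) and Krt8 (-3.46), the tubulins Tuba1c (-4.07) and Tubb6 (-3.03), and the intermediate filaments Vim (-3.07) and Lmna (-1.96). Axon guidance and neural adhesion genes were higher for 42 of 60 and lower for 2 (median 2.06). Chl1 read 7.69, 7.67, 7.66 and 7.58, Pcdh8, a protocadherin induced by activity, averaged 6.55 ± 0.15, the Slit receptor Robo2 4.67 ± 0.14 and Ncam1 2.64 ± 0.12. A second probe of Robo2 read 1.85, and other probes of Ncam1 read 1.58 and 1.53, all called higher. Dcc, the netrin receptor, read -0.43, -0.21, -0.38 and -0.40 and was not called. Sema3a, a repellent ligand, and Efna5, an ephrin, were lower at -3.40 ± 0.086 and -1.41 ± 0.19. A second probe of Sema3a read -0.84, and the call of Efna5 was lost with median centring and with no normalisation.

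Related genes were also set against each other within each array, as differences between 2 log ratios and not between levels, with no test. In 15 pairs, chosen after their values were seen, a form known from neurons was set against a relative known from other cells. These labels are loose, since some of the first forms, such as Hk1 and Ldhb, are not confined to neurons. The first form was called higher in all 15. The relative was lower in 9, not called in 5 and higher in 1 (Napa). Tubb3 exceeded Tubb6 by 9.18 ± 0.13 log2 units (SD, n = 4), Slc12a5 exceeded Slc12a2 by 6.32 ± 0.22, and the vesicle SNARE Vamp2 exceeded Vamp8 by 6.04 ± 0.21. In the BAF chromatin remodelling complex, whose subunits are exchanged when neurons leave the cell cycle, Actl6b exceeded Actl6a by 5.21 ± 0.23, Dpf1 exceeded Phf10 by 4.42 ± 0.056 and Ss18l1 exceeded Ss18 by 3.88 ± 0.092. Ptbp2 exceeded Ptbp1 by 4.09 ± 0.12. Among metabolic genes Slc2a3, a neuronal glucose transporter, exceeded Slc2a1 by 4.21 ± 0.25, Hk1 exceeded Hk2 by 4.06 ± 0.11 and Ldhb exceeded Ldha by 2.22 ± 0.16. The smallest gap, between the enolases Eno2 and Eno1, was 0.73 ± 0.22.

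**Figure D3:**
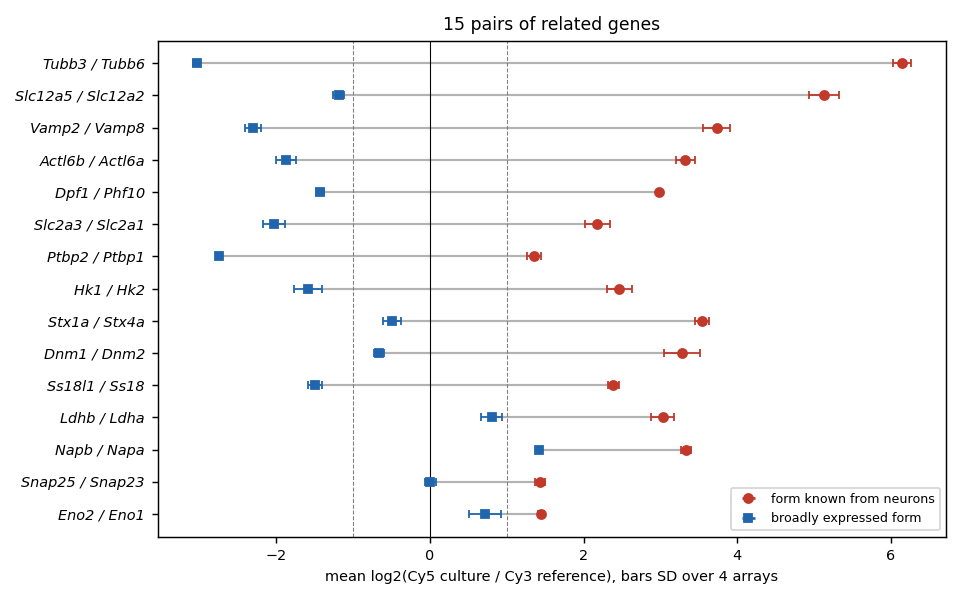
Mean log2(Cy5 culture / Cy3 reference) over 4 arrays, with SD as bars, for 15 pairs of a form known from neurons (circles) and a relative (squares). The labels drawn for circles and squares are loose in some pairs, such as Hk1 with Hk2 and Ldhb with Ldha. The pairs were chosen after their values were seen, and the circle lies to the right of the square in all 15. The widest gap is that of Tubb3 and Tubb6 and the narrowest that of Eno2 and Eno1.

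Astrocyte markers were mostly higher. Of 29 astrocyte markers, 24 were higher and 1 was lower (median 3.29). Gfap, the astrocyte intermediate filament, read 6.40, 6.14, 6.34 and 6.20, or 77.2-fold with the reference above background on 3 arrays, and its other probes gave 4.62 and 2.75. Slc1a3, the glutamate transporter GLAST, read 5.93, 5.84, 5.97 and 5.93, and Aqp4, the water channel of astrocyte endfeet, read 4.77, 4.73, 5.05 and 4.79 with the reference above background on 2 arrays. Aldh1l1, a folate enzyme, averaged 3.32 ± 0.066. Sparcl1 (hevin), an astrocyte-secreted protein, and Mlc1, a membrane protein of endfeet, averaged 7.61 ± 0.12 and 6.69 ± 0.081. The 1 lower member was Id3, an inhibitor of bHLH factors that many dividing cells express, at -1.77 ± 0.11.

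The oligodendrocyte list was uneven, with 6 of 24 markers higher (25.0%) and 3 lower (12.5%) (median 0.029). The transcription factors Olig1 and Olig2 read 6.39, 6.11, 6.31 and 6.14 and 2.48, 2.71, 2.67 and 2.41, the latter at least 5.81-fold. Mbp, myelin basic protein, read 0.17, 0.15, 0.31 and -0.13 and was not called. Pdgfra, a receptor of oligodendrocyte precursors that fibroblasts also express, was lower at -4.37, -4.55, -4.06 and -4.31. Cspg4 (NG2) was lower at -1.35 ± 0.059 and Mal, of myelin and epithelia, at -3.19 ± 0.093.

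No microglia marker was higher, and 11 of 23 were lower (median -0.58). The median was -2.11 with the scanner's ratio, -1.25 with normexp offset 0 and -1.48 over the markers above background in either channel on 3 arrays. Cx3cr1, the fractalkine receptor of microglia, was above background in Cy5 on no array and read -0.36, -0.47, -0.41 and -0.23. Aif1 (Iba1) read -1.37, -1.39, -1.34 and -1.27, Csf1r -1.22, -1.196, -1.09 and -1.42 with other probes at -0.68 and 0.09 that were not called, and Itgam 0.22, 0.31, 0.28 and 0.080. The lysosomal and receptor genes Ctss, Trem2 and Fcer1g, which macrophage lines also express, averaged -6.38 ± 0.19, -4.27 ± 0.043 and -3.73 ± 0.11.

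Endothelial and mural markers were higher for 2 of 24 (8.33%) and lower for 8 (33.3%), with a median of -0.094. The shares over all features were 12.8% and 12%. In 9 of the 24 markers neither channel was above background on any array. Over the markers above background in either channel on 3 arrays the median was -1.40. Cldn5, of the blood-brain barrier, read 0.16, -0.010, -0.057 and 0.085 with Cy5 well above background on 2 arrays, and Pecam1 read -0.33, -0.51, -0.42 and -0.36. Kdr averaged 0.23 ± 0.064, and its second probe read 1.82 and was called higher. Pdgfrb, of pericytes and fibroblasts, was lower at -3.36, -3.38, -3.35 and -3.62, as were Ly6c1 (-4.06) and the VEGF receptor Flt1 (-3.92). The higher members were Egfl7, at 2.52 ± 0.16, and the pericyte gene Rgs5, at least 2.45-fold.

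Fibroblast and meningeal markers were lower for 26 of 30, the lowest median of all 37 lists at -3.13. A low ratio depends on the pool as much as on the culture and does not measure how many fibroblasts the culture held. Cy5 was well above background on all 4 arrays for each member named here. Col1a2 read -4.56, -4.78, -4.59 and -4.55, Dcn, a matrix proteoglycan, read -3.64, -3.38, -3.22 and -3.54, and S100a6 averaged -5.58 ± 0.039. Lum, at -0.36, -0.032, 0.013 and -0.18, was not called. The 1 higher member, Thy1 at 3.02 ± 0.024, is also a neuronal surface antigen and stands on the pan-neuronal list.

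Ependymal and choroid plexus markers were mostly not called, with 3 of 16 higher (18.8%) and 2 lower (12.5%), shares near those of all features. Foxj1, the master factor of motile cilia, read 2.50, 2.57, 2.59 and 1.48, lower on replicate 4, and averaged 2.55 without that array. Ttr, transthyretin of the choroid plexus, read 0.71, 1.096, 0.48 and 1.46 with Cy5 above background on 3 arrays and was not called. Kl read 0.28, 0.074, 0.19 and 0.043, and Aqp1, the choroid water channel that other epithelia and endothelium share, was lower at -3.19 ± 0.064. Otx2, a homeobox factor of choroid plexus, was at least 2.34-fold higher, Enkur, of sperm and cilia, averaged 1.36 ± 0.082, and Rarres2 was lower at -1.30 ± 0.099.

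Among 25 progenitor and radial glia markers, 12 were higher and 4 lower (median 0.87, or 1.48 with the scanner's ratio and 1.31 with normexp offset 0). Sox2, a factor of neural stem cells that astrocytes keep, was at least 14.0-fold higher, and Fabp7, a lipid-binding protein of radial glia and astrocytes, averaged 5.48 ± 0.084. Sox3 averaged 5.05 ± 0.23 with the reference above background on 1 array. Nes, the progenitor filament nestin, read -0.086, -0.16, -0.021 and -0.55, Pax6 read 0.079, 0.10, 0.12 and 0.12, and neither was called. Eomes, a factor of intermediate progenitors, was above background in neither channel. The lower members were Vim (-3.07), Notch2 (-2.28, second probe -0.12), Gli3 (-2.26) and Hes1 (-1.35). Astrocyte and progenitor lists share Slc1a3 and Fabp7.

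Most cell division genes were lower. Of 57 cell cycle genes, 45 were lower and 5 higher (median -2.93). Mki67, the antigen of dividing cells, read -5.53, -5.71, -5.34 and -5.64, or 47.0-fold more in the reference (adjusted p = 1.6e-13). Ccnb1, cyclin B1 of mitosis, read -4.26, -4.49, -4.10 and -4.22, Top2a, which untangles replicated DNA, read -3.61, -3.78, -3.63 and -3.73, and Mcm2, of the replicative helicase, read -2.91, -3.15, -2.96 and -3.02. Birc5 averaged -4.74 ± 0.17, and Bub1 -4.67 ± 0.16 with Cy5 well above background on 1 array. Among the higher members, Cdk5r1 (p35) and Cdk5 averaged 5.49 ± 0.061 and 3.18 ± 0.12 and Cdk5r2 (p39) was at least 3.94-fold higher. These encode a kinase and its activators that work in postmitotic neurons. The remaining higher members were Ccnd2 at 1.67 and the inhibitor Cdkn2d at 1.67.

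The consensus letters of E2F, the factor family that turns on S-phase genes, were searched for in the same promoter windows as TTTCCCGC or TTTGGCGC on either strand. At least one of them stood in 4.80% of lower genes, 1.59% of higher genes, 2.28% of uncalled genes and 1.80% of all genes, with no test made. The stretches below are shown because they lie upstream of replication genes that were lower in the culture and hold such a match, in capitals. On the opposite strand the letters appear as GCGGGAAA or GCGCCAAA.
Mcm5 (chr8:75109330-75109397, plus strand): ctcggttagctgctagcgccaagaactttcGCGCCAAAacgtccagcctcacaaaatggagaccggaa
Mcm6 (chr1:128359778-128359845, minus strand): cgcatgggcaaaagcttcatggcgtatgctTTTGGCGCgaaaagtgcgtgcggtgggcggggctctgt
Mcm7 (chr5:138172011-138172078, minus strand): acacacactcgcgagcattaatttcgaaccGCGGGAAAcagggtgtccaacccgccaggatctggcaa
Cdc6 (chr11:98907983-98908050, plus strand): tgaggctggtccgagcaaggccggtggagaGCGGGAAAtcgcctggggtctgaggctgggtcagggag
Mcm5, Mcm6 and Mcm7, subunits of the replicative helicase, averaged -2.45 ± 0.061, -3.97 ± 0.12 and -3.61 ± 0.079. Cdc6, which loads that helicase, was at least 4.23-fold more in the reference. The matches began at -149, -110, -165 and -138 from the gene starts, on the opposite strand for all but Mcm6.

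Lists of genes from other tissues had few higher members. Lymphocyte and blood genes were lower for 18 of 31 (median -1.64, or -2.56 with the scanner's ratio). Cd79b, of the B cell receptor, read -4.24, -4.44, -4.27 and -4.23, Lat, of T cell signalling, averaged -3.58 ± 0.10, the kinase Lck -2.12 ± 0.060 and Cd3e -1.36 ± 0.048. Gata3, of T cells, was at least 16.5-fold more in the reference. Cd79a, of the B cell receptor, was not called at 0.018. The 1 higher member was the actin-binding Coro1a at 1.14 ± 0.029 (adjusted p = 0.0175). Its call was lost with scale normalisation, the scanner's ratio and normexp offset 0, and without replicate 1, 2 or 3 (adjusted p of 0.0622 to 0.0774). Skeletal muscle genes were lower for 11 of 23 (median -1.04, or -2.02 with the scanner's ratio), led by Tnnt1 (-2.97) and Acta1 (-2.94), with Myog at -1.22 (Cy5 on 3 arrays) and Myod1 not called at 0.034. Myh8, perinatal myosin heavy chain, was higher at 2.79 ± 0.19, while its second probe was above background in neither channel.

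Epithelial genes were lower for 9 of 32 (28.1%, against 12% of all features). Epcam read -3.37, -3.64, -3.42 and -3.35, and Krt19 and Lgals3 averaged -4.24 ± 0.081 and -3.55 ± 0.034. Cdh1, E-cadherin, was not called at -0.52, above background in Cy5 on no array. Liver and kidney genes were lower for 5 of 29, or 17.2% against 12% of all features, which is not far from the background. Afp, alpha-fetoprotein, was at least 14.4-fold more in the reference, Foxa2 at least 2.88-fold more (a second probe at -0.93 was not called), and Foxa1 read -2.60, -1.49, -2.69 and -2.57 with Cy5 above background on 1 array. Alb and Apoa1, which mark adult hepatocytes, were above background in neither channel. Of 27 pluripotency and germ cell genes 22 were not called. The shares higher (11.1%) and lower (7.41%) did not exceed the 12.8% and 12% of all features. Nanog read -0.72, -0.83, -0.69 and -0.56, Pou5f1 was above background in neither channel, and Dppa3 was above it on 1 array in each. Dnmt3l, a cofactor of germ line methylation, was lower at -1.53 ± 0.10, as was Klf4, listed above among the activity-regulated genes. Esrrb, an orphan nuclear receptor, was higher at 1.72 ± 0.13. Of the germ cell genes, Ddx4 was higher at 1.45 ± 0.097 with Cy3 above background on 3 arrays, and Dazl was at least 1.98-fold higher.

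Ribosomal protein genes were lower or not called. Of 67 cytosolic ribosomal protein genes, 20 were lower (29.9%, against 12% of all features) and none higher (median -0.73). Rpl3 read -1.42, -1.44, -1.51 and -1.34, and Rps6, Rpl4 and Rps3 averaged -0.71 ± 0.024, -0.87 ± 0.039 and -0.89 ± 0.15 without being called. Rps19 averaged -1.90 ± 0.10. These genes have many near-identical pseudogenes, so their probes are uncertain: Rpl30 averaged -2.02 while another of its probes read -0.70, and another probe of Rps6 read -2.16 and was called lower. Respiratory chain and ATP synthase genes were higher or not called with 1 exception, with 24 of 55 higher and 1 lower (median 1.04). Cox6a1, a subunit of cytochrome oxidase, averaged 3.06 ± 0.12, while its muscle and heart relative Cox6a2 was the 1 lower gene at -1.38 ± 0.065. That call was lost with median centring (-1.05) and with no normalisation (-1.04). Atp5g3 averaged 2.46 ± 0.19, Atp5b, the catalytic chain of ATP synthase, read 1.73, 1.77, 1.85 and 1.80, and Ndufa1 and Atpif1 averaged 1.86 ± 0.11 and 2.06 ± 0.14. Sdha (1.08) and Cox4i1 (0.62) were not called, although Sdha was called higher without replicate 4 (1.13).

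Glycolytic genes did not all move one way, with 9 of 29 higher (31.0%) and 6 lower (20.7%), against 12.8% and 12% of all features. The share lower is not far from that of well-detected features given above. Aldoc, the brain aldolase that astrocytes also carry, averaged 3.67 ± 0.055 and Ldhb 3.03 ± 0.15. Eno3, muscle enolase, read -3.64 ± 0.069, the lactate exporter Slc16a3 -2.73 ± 0.036 and the pyruvate dehydrogenase kinase Pdk1 -2.22 ± 0.051. Cholesterol genes were higher for 20 of 31 and lower for none (median 1.63). Apoe, the lipid carrier secreted by astrocytes, read 5.04, 4.87, 5.03 and 4.98. The synthesis enzymes Hmgcs1, Sqle and Tm7sf2 averaged 4.33 ± 0.089, 2.85 ± 0.054 and 3.63 ± 0.041.

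Antigen presentation and interferon-stimulated genes were lower for 25 of 33 (median -2.54), in a culture that had received a lentivirus. B2m, the invariant chain of MHC class I, read -3.40, -3.54, -3.60 and -3.58, or 11.6-fold more in the reference. Oas1a, which senses double-stranded RNA, read -4.70, -4.73, -4.71 and -4.52, Usp18 averaged -4.42 ± 0.066, Bst2 -3.89 ± 0.037, Isg15 -3.26 ± 0.034 and Irf7 -2.40 ± 0.15, the last with Cy5 above background on 3 arrays. The 1 higher member was the MHC class II gene H2-Ab1 at 1.403 ± 0.14, with a second probe at 1.53. There was no uninfected culture among the arrays, so any effect of the virus cannot be told apart from the culture's own state.

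**Figure D4:**
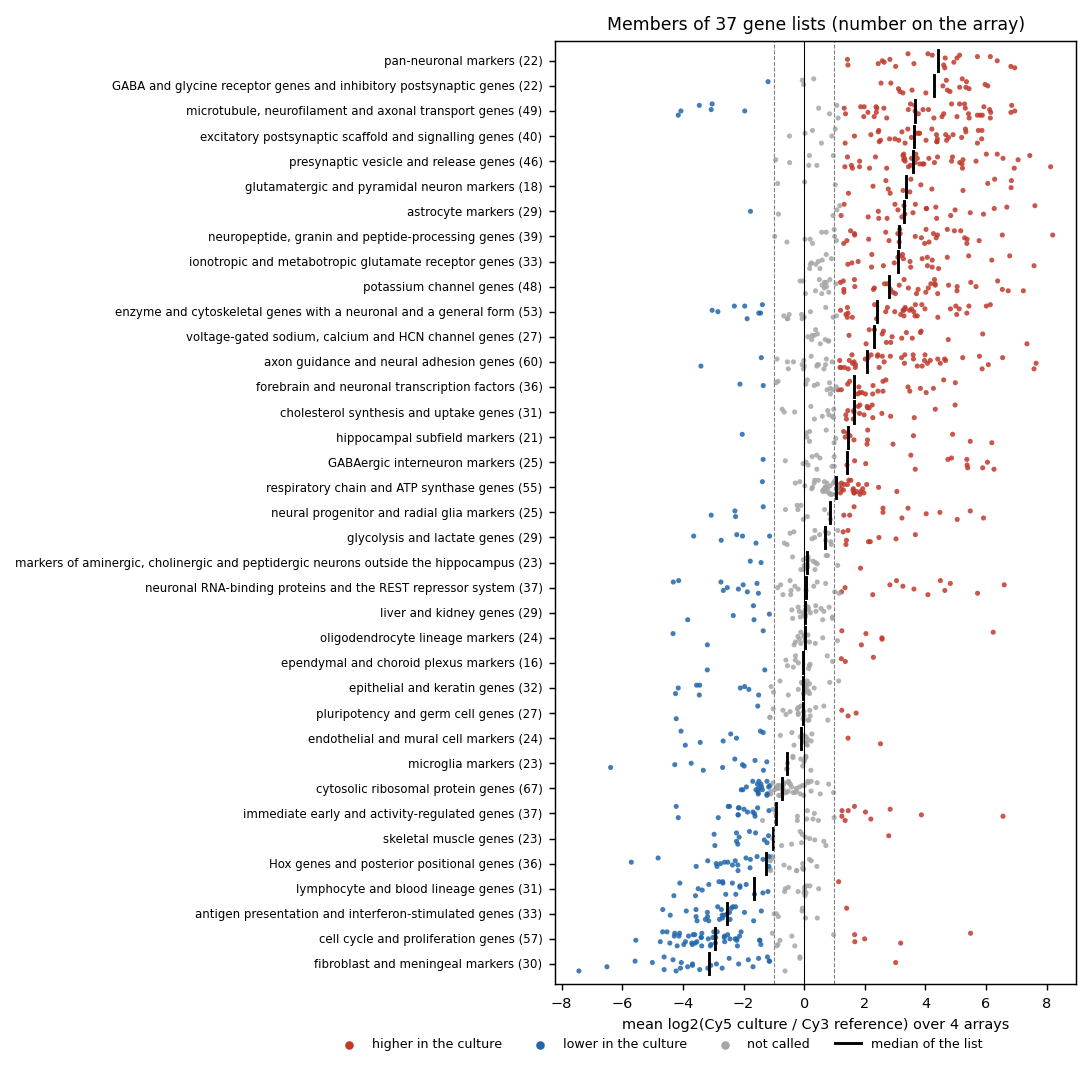
Mean log2(Cy5 culture / Cy3 reference) over 4 arrays of the members of 37 gene lists, with colours for the call and a black bar at each list's median. The lists are ordered by median, from fibroblast markers at -3.13 to pan-neuronal markers at 4.41. Dashed lines mark a 2-fold difference.

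The arrays differed little for most genes. Over the 13012 named genes well above background in both channels on all 4 arrays, the median SD of the log2 ratio was 0.0897 and its 95th percentile 0.199, and 11 genes had an SD over 0.5. The 10 most variable genes are given as a description. Lrrc4c, a postsynaptic adhesion protein, read 3.22, 4.75, 4.97 and 4.64, low on replicate 1, and Fam78b read 4.83, 4.69, 3.14 and 4.17, low on replicate 3. Akap5, which anchors kinases at synapses, read 5.09, 5.03, 5.19 and 3.60 and Pak7, a neuronal kinase, 4.40, 4.79, 4.96 and 3.49. The vesicle calcium sensor Doc2b read 5.20, 5.22, 5.21 and 3.97, the growth factor Mdk 3.26, 3.11, 3.25 and 2.20, Fam217b 1.38, 1.55, 1.37 and 0.18 and 2700099C18Rik -2.47, -2.56, -2.45 and -1.23. In these 6 genes, as in Foxj1, replicate 4, the single array of batch 2, lay nearest to 0. These values come from 1 probe per gene. A second probe of Mdk averaged 3.27 and other probes of Pak7 3.49 and 1.84, all called higher. Their values on each array are not given here, so the shift of replicate 4 may belong to the probe used. Egr2, an immediate early gene, read -1.403, -1.76, -0.49 and -1.84 and was highest on replicate 3. Over all 13012 genes, replicate 4 lay more than 1 log2 unit from the mean of the others in 7 and beyond their range by over 0.5 in 54. Without replicate 4, 4193 features were higher and 3984 lower, and Fam217b, not called with all 4 arrays (adjusted p = 0.951), was called higher at 1.43.

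**Figure D5:**
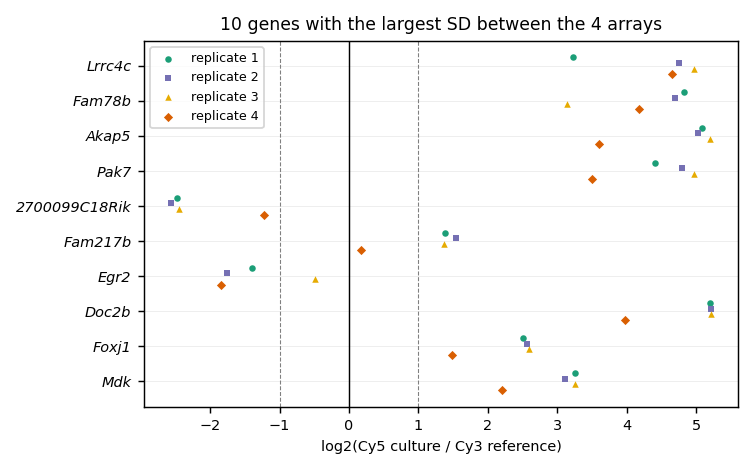
Log2(Cy5 culture / Cy3 reference) on each of the 4 arrays for the 10 genes with the largest SD. Replicate 4 is set apart toward 0 in Akap5, 2700099C18Rik, Fam217b, Doc2b, Foxj1 and Mdk, while Lrrc4c, Fam78b and Egr2 are set apart by another array.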

How the data were processed

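The deposited scanner files hold Cy5 and Cy3 intensities of each spot, read per the file headers by Agilent's Feature Extraction 11.0.1.1, and the software's own log10 ratio, which is background-subtracted and dye-normalised. The authors' value table holds log2 ratios of Cy5 over Cy3 for 24275 probes of the same arrays. It followed the ratios computed here at r of 0.9982 to 0.9999 with a slope of 0.998 to 1.007, and its column medians were 0.0250 to 0.0278. Its steps of processing are not given in the sources used here.

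Median signals were background-corrected here (normexp, offset 50) after leaving out spots with a non-uniform local background, and normalised by loess within arrays with limma 3.58.1 in R 4.3.3. Control spots had weight 0, outlier spots were left out, spots of a probe were averaged, and a probe needed values on 3 of the 4 arrays. A gene was read from its probe of highest mean intensity over both channels. Values of other probes are given for some of the genes named and not for all. An intercept was fitted over the 4 arrays and tested with treat against a null within 2-fold, two-sided, with Benjamini-Hochberg adjustment over 32585 features at 0.05. Of these, 20144 had a gene symbol and 12441 were unnamed probes. The fit was checked on simulated data.

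Genes named are the 15 highest and 15 lowest called, the 4 or 5 defining members and the 3 highest and 3 lowest called of each of 37 lists, and the 10 of largest SD. Some genes that this rule selects are not reported here, although they enter every fit, count and median. Nr4a1, the 15 pairs, the genes beside printed promoters, the interneuron class markers and the uncalled or minority members of a list beyond that rule were chosen after their values were seen. Members and lists were chosen with earlier results of these data known. Alternatives changed the background correction, normalisation, filter, probe rule, null and arrays.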

Additional observations from a re-analysis of the deposited data

Results flagged for a closer look

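In 28 of 302 values tested (genes named in the text and medians of lists), 1 array stood apart from the other 3, with a gap above 0.829 of the whole range. Chance alone marks about 1 in 20 of independent normal values, which these are not. They include the genes picked for the largest SD over the same arrays, among them Akap5, Doc2b, Mdk, Foxj1, Fam217b and 2700099C18Rik. The counts are therefore a description and not a test. The array that stood apart was replicate 4 for 18 values, replicate 2 for 5, replicate 3 for 4 and replicate 1 for 1. Each value below is the log2 ratio on the array set apart, with a gene read from 1 probe.

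Replicate 4 was set apart for the neuronal and synaptic genes Akap5 (3.60), Doc2b (3.97) and Npy (1.07) and for the growth factor Mdk (2.20), each lower than on the other arrays. It was also set apart for the ciliary factor Foxj1 (1.48), Fam217b (0.18), 2700099C18Rik (-1.23), the pericyte receptor Pdgfrb (-3.62), the hedgehog effector Gli3 (-2.56), Pou5f1 (-0.054, above background in neither channel) and Oas1a (-4.52). The metabolic genes Ndufa1 (2.02), Atpif1 (2.27), Cox4i1 (0.73) and Ldhb (3.26) stood above the other arrays there, and Hk1 (2.23) stood below them. On the same array the median of the hippocampal subfield markers was 1.13 and that of the GABA and glycine receptor genes 3.97. Replicate 4 is the single array of batch 2, so array and batch cannot be told apart.

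Replicate 2 was set apart for Pcp4 (4.81), Cd79b (-4.44), Lat (-3.74), Foxa1 (-1.49) and Krt19 (-4.36). Replicate 3 was set apart for Neurod6 (6.92), Robo2 (4.88), Rgs5 (1.32) and the median of the skeletal muscle genes (-1.20). Replicate 1 was set apart for Cox6a2 (-1.47).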

How the results depend on the processing

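No paired analysis was possible because only 1 group of arrays enters the fit. The numbers of features called stayed within 1.5 times those of the main setting under every alternative but 1: with no minimum fold (a null ratio of 1), 11933 were higher and 11056 lower. Leaving out each array in turn gave 4015 to 4193 higher and 3759 to 3984 lower. Of the 224 called among the 266 genes of the naming rule that are reported here, 207 kept call and sign under all 17 alternatives that gave them a value, and 17 lost the call under at least 1 of them. Besides those named with the results, these were Cd3e, Hk2 and Rarres2 with no normalisation, Csf1r with median centring, no normalisation and the mean of all probes, Ddc with the mean of all probes, Dazl, Myog and Otx2 with scale normalisation, and Foxa2, Rpl30 and Scn3a in the deposited value table. No called gene of these 266 changed sign. The changes of sign were in genes that were not called, most of them dim. With median centring in place of loess the values were Alb -0.032, Cd79a -0.012, Chat -0.039 and Nes 0.15, and with no normalisation Alb -0.023, Cd79a -0.0029, Chat -0.031 and Nes 0.16. With the scanner's ratio they were Alb 0.0, Cd79a -0.13, Chat -0.12 and Itgam -0.088. Without background correction Cd79a was -0.0061, with offset 0 Dppa3 was 0.016, and with the mean of all probes Mbp was -0.018. In the value table Itgam was -0.048 and Eomes 0.10. Leaving out 1 array gave ranges of -0.025 to 0.088 for Alb, -0.081 to 0.081 for Chat and -0.044 to 0.020 for Dppa3. The cause of these changes was not tested. Requiring both channels well above background on all 4 arrays left fewer genes to test, with 12 glutamate receptor genes higher in place of 24, 9 inhibitory synapse genes in place of 18, 16 potassium channel genes in place of 34 and 8 Hox genes lower in place of 20. Against a 1.5-fold null, 36 ribosomal genes were lower in place of 20 and 42 respiratory genes higher in place of 24. With the scanner's ratio 4 liver and kidney genes and 1 of the Hox and posterior genes were higher, against none. Egr2 was called without replicate 3, at -1.67. Where a channel was not well above background, ratios are compressed toward 0. Folds were given as bounds only for genes with a channel well above background on no array. The log2 ratios printed for these and other dim genes are as measured.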
